A study of Mus musculus with 9 samples.

Results

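The genes of the proteasome were followed across 9 chromatin immunoprecipitation sequencing (ChIP-seq) libraries from 3T3-L1 cells, a mouse preadipocyte line. Members were all protein-coding genes of the GRCm38.p6 RefSeq gene table whose symbol is Psm, then a letter from a to g, then a digit. This gave 51 genes of 21887. Every group used here carried a siRNA: a negative control (siControl), a siRNA against malic enzyme 1 (siME1) or one against malic enzyme 2 (siME2). It was given 2 days before adipocyte differentiation was induced, and chromatin was fixed with 1% formaldehyde on day 7 of differentiation. The antibodies recognised acetylated H3 (AcH3), acetylated H2B (AcH2B) or the deacetylase HDAC3, and each combination of antibody and siRNA had 1 library. The labels name the cell type as preadipocytes and do not say whether libraries of different antibodies came from separate cultures. Each difference below therefore describes a pair of libraries, with no spread between cultures and no test.

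The proteasome is the protease that degrades proteins tagged with ubiquitin. Its barrel-shaped 20S core is made of α rings, which gate the entry, and β rings, which hold the proteolytic sites. The 19S cap binds ubiquitin chains, removes them, and unfolds the substrate with a ring of ATPases. The subunits are needed in fixed proportions, and in mammals the transcription factor NRF1 (Nfe2l1) raises many of their genes together when proteasome activity is short. Acetylated histones H3 and H2B are found mainly at promoters and enhancers in use.

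The members were split by role into 7 α ring genes, 7 constitutive β ring genes, 5 inducible or tissue-specific core genes, 6 ATPases of the cap, 11 other cap subunits, 6 activators and inhibitors, and 7 assembly chaperones. A further 2 genes, Psmc3ip, a meiotic recombination factor, and Psme3ip1, a partner of an activator, share the symbol stem only and encode no subunit. They are counted among the 51. A gene was called marked when a deposited region came within 1 kb of either of its ends. Such a region is called an end region, and its value is the authors' own fold over local background at the strongest summit. A gene that is not listed had no region past the authors' limit, which is not the same as no acetylation.

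The deposited lists held 21995, 34799 and 28415 AcH3 regions in siControl, siME1 and siME2, 20046, 54649 and 32465 AcH2B regions, and 4614, 5202 and 1597 HDAC3 regions. Estimated depth was 6.04 to 8.43 fragments per kb. Between 91.9% and 97.6% of the HDAC3 regions had a −log10 q under 1.3, and the titles of these libraries name H3, so the antibody label was followed. Transcripts were not measured, which leaves the extent of knockdown unchecked here. Of 10 adipocyte markers, 4 had an AcH3 end region in each library, but not the same 4. Cebpa, Lpl and Fasn were listed in every AcH3 library, Pparg in siControl and siME1 only, and Fabp4 in siME2 only. Adipoq, Plin1, Cidec, Lipe and Slc2a4 had none in any. Of 7 preadipocyte and fibroblast markers, 7, 6 and 6 were listed for AcH3 in siControl, siME1 and siME2. Of 5 leukocyte markers 1 was listed (Cd68), and none of the 3 hepatocyte, 3 muscle or 3 neuron markers was.

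AcH3 was listed at 45 of the 51 proteasome genes in siControl (88.2%), against 47.0% of all protein-coding genes. It was listed at 43 (84.3%) in siME1, against 41.7%, and at 19 (37.3%) in siME2, against 23.9%. AcH2B had the opposite order. It was listed at 4 members in siControl (7.84%), a share below the 10.1% of all genes, at 20 (39.2%) in siME1, against 30.6%, and at 26 (51%) in siME2, against 25.8%. These shares take no account of AcH3. Of genes with AcH3 in siControl, 4 of 45 members also had AcH2B there, against 2010 of 10295 genes. Where AcH3 stood alone in siControl, AcH2B was listed at 17 of 41 members in siME1, against 4169 of 8285 genes, the lower share. In siME2 it was at 22 of 41 such members, against 3589 of 8285, the higher share. HDAC3 was listed at 1 member in each library (1.96%), against 4.53%, 2.99% and 1.91% of all genes. The lists differ in length, and with the lists of each antibody cut to the same number of regions AcH2B was listed at 9 members in siME1 rather than 20. That is 17.6%, against 16.5% of all genes, so the share in siME1 was then near the background, while in siME2 it was 43.1%, against 19.5%.

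**Figure D1:**
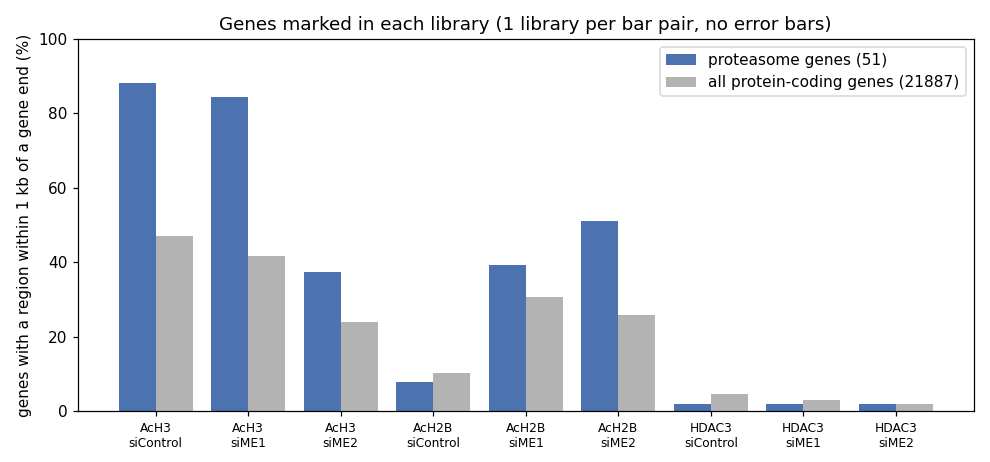
Percent of genes with a region within 1 kb of a gene end (vertical axis) in each of the 9 libraries, for the 51 proteasome genes (blue) and all 21887 protein-coding genes (grey). For AcH3 the proteasome bars stand at 88.2, 84.3 and 37.3%, and for AcH2B at 7.84, 39.2 and 51%, while the grey AcH2B bars stand at 10.1, 30.6 and 25.8%.

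Strand was known for 38 of the 45 members with AcH3 in siControl, and at all 38 the region was at the end where transcription starts. At 36 of them the summit was within 1 kb of the annotated start, and Psma3 and Psmc2 were the exceptions. RefSeq promoter sequence, from 250 bp before to 50 bp after the start in GRCm38.p6, was matched for 43 members. The members' promoters held a median of 19 CpG dinucleotides, against 13 over 17492 protein-coding promoters and 22 over the 8437 promoters with AcH3 in siControl. Psmb8, Psmb11 and Psme2b, the members with a promoter entry and no AcH3 region at it or at a gene end in any library, held 11, 4 and 2. They are printed first, below the CpG-dense promoter of the ATPase gene Psmc4, with every CpG in capitals. Psmc4 lies on the minus strand at chr7:28050043-28050342, Psmb8 on the plus strand at chr17:34197945-34198244, Psmb11 on the plus strand at chr14:54625060-54625359 and Psme2b on the minus strand at chr11:48946361-48946660.
Psmc4: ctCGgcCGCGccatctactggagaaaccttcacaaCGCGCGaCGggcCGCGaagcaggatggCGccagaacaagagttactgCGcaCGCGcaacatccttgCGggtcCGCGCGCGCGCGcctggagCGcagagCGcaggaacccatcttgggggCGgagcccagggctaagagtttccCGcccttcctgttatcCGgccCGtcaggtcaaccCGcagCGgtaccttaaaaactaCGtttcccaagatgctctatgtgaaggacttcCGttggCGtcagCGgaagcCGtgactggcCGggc
Psmb8: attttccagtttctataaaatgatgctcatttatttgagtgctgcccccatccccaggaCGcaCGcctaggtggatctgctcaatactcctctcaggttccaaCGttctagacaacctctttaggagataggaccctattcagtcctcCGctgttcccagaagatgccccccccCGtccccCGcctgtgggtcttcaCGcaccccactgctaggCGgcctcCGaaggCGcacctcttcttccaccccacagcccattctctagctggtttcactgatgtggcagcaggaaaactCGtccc
Psmb11: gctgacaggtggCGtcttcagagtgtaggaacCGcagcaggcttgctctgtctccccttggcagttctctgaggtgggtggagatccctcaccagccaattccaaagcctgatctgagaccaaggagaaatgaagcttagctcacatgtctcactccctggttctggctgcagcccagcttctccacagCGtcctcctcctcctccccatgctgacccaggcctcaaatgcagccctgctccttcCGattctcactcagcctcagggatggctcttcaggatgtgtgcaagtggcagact
Psme2b: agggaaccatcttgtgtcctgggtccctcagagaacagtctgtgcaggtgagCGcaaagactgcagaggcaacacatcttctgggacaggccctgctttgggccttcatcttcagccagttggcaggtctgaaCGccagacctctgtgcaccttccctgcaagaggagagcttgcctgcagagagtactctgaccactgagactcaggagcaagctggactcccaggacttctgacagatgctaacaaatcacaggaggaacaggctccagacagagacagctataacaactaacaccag

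Psmc4 held 34 CpGs in these 300 bp. CpG content did not sort every member. Psmb10, which had AcH3 in all 3 libraries, held 3 CpGs, and among the 39 members with AcH3 in siControl at the start used for this count the number ran from 3 to 41. For a gene with several annotated starts the one nearest the gene's 5′ end was used, which for Psma6 was its outer, unmarked start.

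Short motifs were searched on both strands of the same 43 promoters. The ETS core CCGGAAG was found in 15 (34.9%), against 21.0% of promoters with AcH3 in siControl and 11.9% of all promoters. The YY1 core AAGATGG was found in 8 (18.6%), against 7.82% and 6.35%. The other motifs lay nearer to the share over all promoters. The shares in members and in all promoters were 37.2% and 39.2% for CCAAT, 14.0% and 13.1% for the antioxidant element TGACNNNGC, to which NRF1 and NRF2 bind, and 6.98% and 3.61% for the core GCATGCGC of nuclear respiratory factor, a protein that shares its abbreviation with the NRF1 named above but is not related to it. For the GC box GGGCGG they were 55.8% and 46.3%, and for TATAAA 9.30% and 13.3%. Among promoters with AcH3 in siControl, CCAAT was in 39.9%, the antioxidant element in 14.9% and the nuclear respiratory factor core in 6.36%. The GC box was in 69.5% of them, above the share in members, and TATAAA in 6.09%. A match is a run of letters and not a measured binding site.

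**Figure D2:**
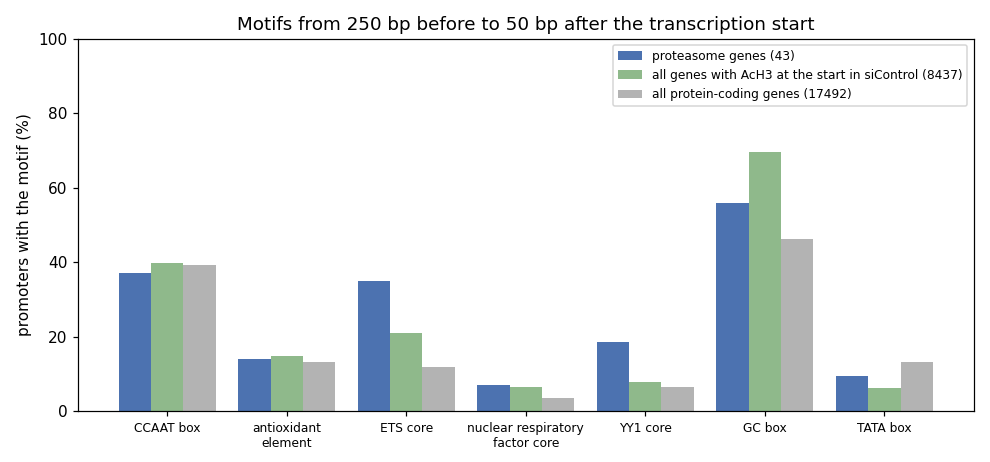
Percent of promoters holding each motif on either strand (vertical axis) for 43 proteasome genes (blue), 8437 genes with AcH3 at the start in siControl (green) and 17492 protein-coding genes (grey). The ETS core (34.9, 21.0 and 11.9%) and the YY1 core (18.6, 7.82 and 6.35%) show the blue bar above both others, and the GC box shows it between them (55.8, 69.5 and 46.3%).

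The promoters below show how these motifs are placed, with the motifs other than the GC box in capitals. Psmc1, an ATPase gene listed for AcH3 in all 3 libraries, has a CCAAT box, an ETS core and a YY1 core (plus strand, chr12:100109952-100110251). Psmb5, whose product is the chymotrypsin-like β subunit, has an antioxidant element (minus strand, chr14:54617946-54618245). Psmb6, the caspase-like β subunit, has an antioxidant element and a YY1 core (plus strand, chr11:70525107-70525406). Psma2 holds 4 nuclear respiratory factor cores, some of which overlap, with a CCAAT box and a YY1 core (plus strand, chr13:14612992-14613291). The inner start of Psma6 holds 3 ETS cores (plus strand, chr12:55398575-55398874).
Psmc1: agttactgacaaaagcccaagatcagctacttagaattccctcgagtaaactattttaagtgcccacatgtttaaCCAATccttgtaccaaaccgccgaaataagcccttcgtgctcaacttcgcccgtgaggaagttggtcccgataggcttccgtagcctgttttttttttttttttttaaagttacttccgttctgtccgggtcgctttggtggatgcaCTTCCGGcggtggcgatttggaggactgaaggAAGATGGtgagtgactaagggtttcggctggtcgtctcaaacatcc
Psmb5: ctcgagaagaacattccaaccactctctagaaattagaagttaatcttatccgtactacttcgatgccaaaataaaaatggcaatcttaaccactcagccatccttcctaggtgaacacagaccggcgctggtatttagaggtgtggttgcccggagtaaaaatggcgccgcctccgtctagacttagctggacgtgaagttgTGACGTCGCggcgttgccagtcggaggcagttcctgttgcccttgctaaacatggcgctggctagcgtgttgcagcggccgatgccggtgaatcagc
Psmb6: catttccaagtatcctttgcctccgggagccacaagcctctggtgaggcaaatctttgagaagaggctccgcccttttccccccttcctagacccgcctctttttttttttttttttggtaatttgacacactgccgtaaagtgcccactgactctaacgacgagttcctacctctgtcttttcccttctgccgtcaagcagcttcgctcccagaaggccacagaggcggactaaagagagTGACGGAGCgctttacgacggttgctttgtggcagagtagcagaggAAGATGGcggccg
Psma2: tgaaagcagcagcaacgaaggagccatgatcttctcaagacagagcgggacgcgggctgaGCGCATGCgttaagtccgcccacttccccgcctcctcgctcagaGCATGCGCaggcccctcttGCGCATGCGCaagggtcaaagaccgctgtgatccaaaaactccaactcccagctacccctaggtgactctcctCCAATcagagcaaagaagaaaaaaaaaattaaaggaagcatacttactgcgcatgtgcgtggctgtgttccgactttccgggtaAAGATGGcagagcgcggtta
Psma6: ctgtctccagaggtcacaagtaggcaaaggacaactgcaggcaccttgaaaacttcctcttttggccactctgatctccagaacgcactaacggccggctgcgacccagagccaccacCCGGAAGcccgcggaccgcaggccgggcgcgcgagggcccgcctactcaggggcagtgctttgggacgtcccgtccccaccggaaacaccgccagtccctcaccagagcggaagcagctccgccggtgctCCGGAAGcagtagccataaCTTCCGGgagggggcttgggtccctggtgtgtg

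Counts by role follow. Over all genes the AcH3 shares in siControl, siME1 and siME2 were 47.0%, 41.7% and 23.9%. For AcH2B they were 10.1%, 30.6% and 25.8%. Each role holds few genes, and differences between roles were not tested. All 6 ATPase genes of the cap were listed for AcH3 in siControl and siME1, and 2 of them, Psmc1 and Psmc3, in siME2. Psmc1 had AcH3 folds of 12, 9.63 and 4.10 in siControl, siME1 and siME2. Psmc3 had 10.8, 8.59 and 6.03. The siControl values of the 6 genes lay close together, from 8.77 at Psmc2 to 12 at Psmc1. Psmc4 and Psmc6 had 11.7 and 10.4 in siControl, 5.03 and 4.48 in siME1, and no region in siME2 for either mark. Psmc2 and Psmc5, with 3.29 and 5.36 in siME1, were not listed for AcH3 in siME2 either. The ATPases unfold substrates and open the gate of the core, and every complete cap holds one copy of each. None of them was listed for AcH2B in siControl, while 4 were in siME1 and 2 in siME2. Psmc3 had AcH2B folds of 5.04 in siME1 and 7.87 in siME2, the highest AcH2B fold of any member. Psmc1 had 4.15 and 6.00. Psmc2, with 3.67, and Psmc5, with 4.61, were listed for AcH2B at their ends in siME1 only. At its annotated starts Psmc2 also had AcH2B in siME2, with 4.07, and its AcH3 fold there in siME1 was 6.36 rather than 3.29. The AcH3 region at Psmc2 in siControl barely reached the 1 kb window, with 4.73% of its length inside it.

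The other 11 cap subunits were all listed for AcH3 in siControl and in siME1, and 5 in siME2. Psmd7, a structural partner of the deubiquitinating subunit, had the highest AcH3 fold of all members in siControl. Its folds were 18.7, 8.53 and 4.09 in siControl, siME1 and siME2. In siME2, 13 of the 19 listed members had a higher fold than this gene and 5 had a lower one. Psmd14, which encodes the deubiquitinating subunit itself, had 7.42 and 6.06 in siControl and siME1 and was not listed in siME2. Psmd4, a ubiquitin receptor, had 12.8 and 3.31 and was not listed in siME2. Psmd2, a scaffold subunit that binds ubiquitin-like domains, had 13.0 and 5.97 and no region in siME2. Psmd3, a structural subunit, had 13.7 and 8.26, also with none in siME2. The remaining pair that left the list, Psmd6 and Psmd8, had 10.9 and 8.32 in siControl and 3.93 and 7.66 in siME1. The 5 genes that stayed on the siME2 list were Psmd1, Psmd7, Psmd11, Psmd12 and Psmd13. Psmd11 had 10.0, 5.06 and 6.12, Psmd12 had 10.8, 9.67 and 4.64, and Psmd13 had 8.06, 6.32 and 4.14. Psmd1, the other large scaffold subunit, had 11.6, 3.98 and 4.96. These 4 genes show no common order of siME1 and siME2, but siControl was highest at each.

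Of these 11 genes, AcH2B was listed at 1 in the control, 2 with siME1 and 5 with siME2. Psmd1 was the gene listed in siControl, with a fold of 5.65. It was not listed in siME1 and had 7.48 in siME2. Psmd7 had 4.04 in siME1 and 3.93 in siME2, and Psmd12 had 3.91 and 3.69. Psmd4, with 5.80, and Psmd6, with 4.73, were listed in siME2 only, and both had no AcH3 there.

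Of the 7 α ring genes, 6 were listed for AcH3 in siControl, 5 in siME1 and 3 in siME2. Psma4 had folds of 14.2, 6.47 and 4.37. Psma1 had 9.64, 4.83 and 3.86. Psma7, with 9.39 and 7.58, and Psma2, with 10.5 and 4.78, were not listed in siME2. Psma5 had 10.6 in siControl and no AcH3 or AcH2B region at its ends in either knockdown. It was 1 of 2 members to leave the AcH3 end list in both (4.44% of 45, against 12.8% of all genes marked in siControl). Psma3 was the exception in level, with 9.91 in siControl, 10.1 in siME1 and 5.55 in siME2. Its end region lies about 6 kb upstream of the annotated start, with the siControl summit at −6081 bp from it. At the annotated start itself Psma3 had 14.6, 5.83 and 4.87, which is the usual order. AcH2B was listed at no α ring gene in siControl, and at Psma3, Psma4 and Psma7 in both knockdowns. Psma3 had AcH2B folds of 6.84 and 7.00 in siME1 and siME2, Psma4 had 3.11 and 4.16, and Psma7 had 4.39 and 3.40.

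Psma6 was not listed at its ends, but the table gives it an inner start, printed above. There the AcH3 folds were 10.8, 7.05 and 4.83 in the same order of libraries, and AcH2B had 4.22 in both knockdowns and no region in siControl. Its outer start holds 3 CpGs and no region, and its inner start holds 22 CpGs. The α ring was thus marked at all 7 genes in siControl once inner starts are counted. Psma6 then also joins the α ring genes listed in siME1 and siME2. No share over all genes is given with inner starts counted.

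All 7 constitutive β ring genes had AcH3 in siControl and siME1, and 2, Psmb2 and Psmb7, in siME2. Psmb7, the trypsin-like subunit, had folds of 9.10, 5.56 and 3.26, the last of them the lowest member value in siME2. Psmb2 had 10.3, 10.0 and 4.51. Psmb4 had the highest value of the ring in siControl, 14.6, then 7.40 in siME1 and no region in siME2. The other catalytic genes also left the list there. Psmb5 had 6.44 and 3.23 and Psmb6 had 12.3 and 3.86 in siControl and siME1, and these Psmb5 values were the lowest of any member in either library. Psmb1 had 8.66 and 4.59, and Psmb3 had 6.99 and 5.88. AcH2B was listed at Psmb7 in all 3 libraries, with folds of 4.95, 6.48 and 4.90. Psmb4 had 3.91 in siME1 and 3.65 in siME2, and Psmb5 had 3.08 and 5.69. Psmb1, Psmb2, Psmb3 and Psmb6 had no AcH2B end region in any library.

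The 5 inducible and tissue-specific core genes split into marked and unmarked genes. Psmb8, Psmb9 and Psmb10 encode the β subunits of the immunoproteasome, which interferon induces. Psmb10 had AcH3 folds of 11.8, 9.48 and 3.54 and AcH2B folds of 4.13, 7.37 and 4.67 in siControl, siME1 and siME2. Psmb9 had AcH3 folds of 7.26, 4.52 and 3.87, and AcH2B of 5.72 in siME2 only. An end of Tap1, the peptide transporter gene next to it, lies within 1 kb of its AcH3 region in siControl. Psmb8, a close neighbour of both, had no end region in any library, and the nearest AcH3 region in siControl ended 3032 bp from it. Psmb11, the thymus β subunit, lies next to Psmb5, and the nearest AcH3 region in siControl was 6867 bp away, with the fold of the Psmb5 region, 6.44. Psma8, the testis α subunit, had its nearest AcH3 region in siControl 21016 bp away.

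Activators replace the cap on the core. Psme1 and Psme2 encode the interferon-inducible activator, Psme3 its nuclear relative and Psme4 a large nuclear activator. All 4 had AcH3 in siControl and siME1. Psme4 had 12.6 and 7.80 and Psme3 had 9.23 and 6.43, and neither was listed in siME2. Psme1 had 10.4, 6.43 and 3.86. Psme2 was the 1 member whose AcH3 fold was higher in siME2 than in siControl, with 8.12, 6.43 and 8.37. Its strongest AcH3 summit lay 658 bp after the annotated start in siControl and at −256 bp in siME2. The end of Rnf31 lay within 1 kb of its AcH3 region in all 3 libraries. Psme1, Psme2 and Psme3 had equal values in siME1, where pileups come in whole steps of 1 fragment before scaling. AcH2B was listed at Psme4 in siME1 only (6.60), and at Psme1 (5.45), Psme2 (4.30) and Psme3 (4.39) in siME2 only. Psme2b, a relative of Psme2, had its nearest AcH3 region in siControl 72547 bp away. Psmf1, which encodes an inhibitor of the core, had no end region, but at its annotated start AcH3 had a fold of 6.77 in siControl and none in either knockdown, and AcH2B had 4.2 in siME2.

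The 7 assembly chaperones were all listed for AcH3 in siControl, 6 in siME1 and 3 in siME2. Psmg1 to Psmg4 build the α ring, and Psmd5, Psmd9 and Psmd10 guide the ATPases into the cap. Psmd5 had AcH3 folds of 12, 6.19 and 5.02, Psmg2 had 11.5, 7.34 and 4.34, and Psmg4 had 10.5, 5.06 and 5.68. Psmg1, with 10.9 and 3.84, Psmg3, with 12.6 and 4.49, and Psmd10, with 6.51 and 5.33, left the list in siME2. Psmd9 had 8.06 in siControl and no AcH3 in either knockdown, the second such gene after Psma5. AcH2B was listed at 1 chaperone gene in siControl, Psmg2, with 3.97, at 4 in siME1 and at 6 of 7 in siME2. Over all genes the shares were 10.1%, 30.6% and 25.8%. Psmg2 had 5.70 and 5.04 in siME1 and siME2. Psmg4 had 4.81 and 6.56, Psmd5 had 3.41 and 5.14, and Psmg1 had 3.76 and 4.04. Psmg3, with 5.00, and Psmd9, with 3.90, had AcH2B in siME2 only. Psmd10 had none.

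The genes that share only the symbol stem behaved alike in these lists. AcH3 folds in siControl and siME1 were 15.5 and 6.24 at Psme3ip1 and 10.1 and 5.39 at Psmc3ip. Neither was listed for AcH3 in siME2. Psme3ip1 had AcH2B folds of 3.79 and 3.59 in siME1 and siME2, and Psmc3ip had 4.0 and 3.82.

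**Figure D3:**
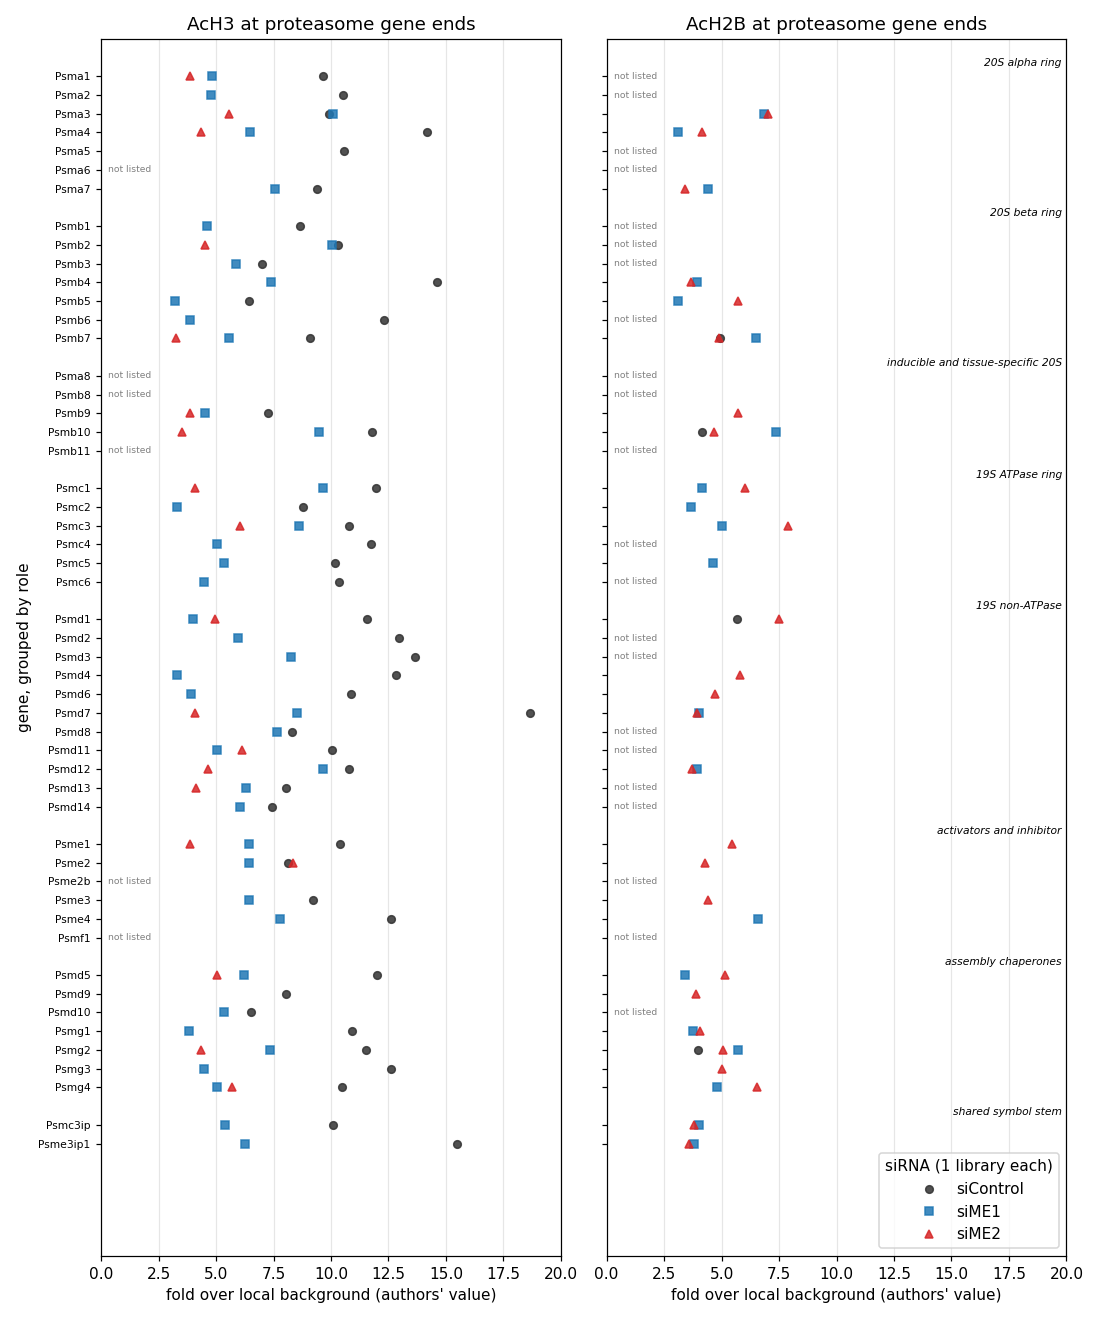
The authors' fold over local background at the strongest summit (horizontal axis) for each of the 51 genes, grouped by role, for AcH3 (left) and AcH2B (right), with 1 point per library and no error bars. Black siControl circles lead the AcH3 panel, up to 18.7 at Psmd7, with Psma3 and Psme2 as the exceptions, and the AcH2B points of all libraries stay between 3.08 and 7.87.

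Over all members listed, the median AcH3 fold was 10.5 in siControl (range 6.44 to 18.7), 5.97 in siME1 (3.23 to 10.1) and 4.37 in siME2 (3.26 to 8.37). The medians over all marked genes were 9.64, 5.91 and 4.75. Of the 43 members listed in both siControl and siME1, 42 had the lower fold in siME1, with a median ratio of 0.530, against 0.596 and 93.2% of genes over all. For siME2 it was 18 of 19, with a median ratio of 0.428, against 0.437 and 96.4%. The ratios at the members were close to those of marked genes in general. Of the 19 members listed in all 3 libraries, 14 had siControl above siME1 and siME1 above siME2 (73.7%), against 76.8% of genes over all. The regions were also narrower. The median width in the same genes was 1402 bp in siControl and 742 bp in siME1 over 43 members, and 1442 and 458 bp for siControl and siME2 over 19 members. Over all genes these pairs were 1425 and 772 bp, and 1618 and 481 bp, so the members were close to marked genes in general.

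Leaving the AcH3 list differed between the knockdowns. In siME1, 2 of the 45 members marked in siControl were not listed (4.44%), against 14.0% of all genes marked in siControl. In siME2 it was 26 of 45 (57.8%), against 51.5%. None of the 6 members not listed in siControl was listed in a knockdown, against 2.44% of such genes in siME1 and 2.02% in siME2. Both comparisons share the siControl library. The siME1 count depended on the score limit, with 9 members not listed when a −log10 q of 5 was required (20%, against 27.6% of all genes) and 7 with lists of equal length (15.6%, against 23.4%). The siME2 count also rose, to 37 with the stricter limit (82.2%, against 71.9%) and 29 with lists of equal length (64.4%, against 57.1%). The 26 members that left the list in siME2 had a median siControl fold of 10.4, and the 19 that stayed had 10.5. Over all genes these medians were 8.24 and 11.3. The siControl level thus did not part the members that left from those that stayed, and in siME1 their medians were 5.34 and 6.43.

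AcH2B was gained, meaning listed in a knockdown and not in siControl, at 17 of 47 members in siME1 (36.2%), against 23.4% of all genes, and at 22 of 47 in siME2 (46.8%), against 19.2%. Members gained in both numbered 14 (29.8%, against 13.5% of all genes). Another 3, Psmc2, Psmc5 and Psme4, were gained at their ends in siME1 only (6.38%, against 9.9%), and 8 in siME2 only (17%, against 5.7%). All 17 and all 22 had AcH3 in siControl, as did 90.6% and 95.1% of all genes that gained AcH2B. The members more often had AcH3 in siControl than genes in general, so the gains were also set against genes with AcH3 alone there. In siME1, 17 of 41 such members gained AcH2B, against 4169 of 8285 such genes, which is the lower share. In siME2 it was 22 of 41, against 3589 of 8285, which is the higher share. Of the 4 members with AcH2B in siControl, 1 was not listed in siME1 (Psmd1), against 5.19% of all such genes, and 0 in siME2, against 15.6%. With the stricter limit the gains were 9 in siME1 (18.4%, against 13.7% of all genes) and 12 in siME2 (24.5%, against 10.3%). With lists of equal length they were 6 in siME1 (12.8%, against 9.22%) and 18 in siME2 (38.3%, against 13.2%). The siME2 over siME1 ratio of AcH2B folds had a median of 0.974 over 17 members, against 0.955 over all genes. Single members went both ways, from 0.633 to 1.85, with 9 of 17 below 1.

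The marks overlapped differently in each siRNA group. In siControl 41 members had AcH3 alone (80.4%, against 37.9% of all genes) and 4 had both marks (7.84%, against 9.18%). In siME1 23 had AcH3 alone (45.1%, against 13.9%) and 20 had both (39.2%, against 27.8%). In siME2 4 had AcH3 alone (7.84%, against 6.81%), 15 had both (29.4%, against 17.1%) and 11 had AcH2B alone (21.6%, against 8.72%). Of the 19 members that kept AcH3 in siME2, 15 had AcH2B (78.9%, against 72% of all such genes), and of the 26 that did not, 11 had it (42.3%, against 32.7%). In siME1 the members lay below such genes. Of the 43 that kept AcH3 there, 20 had AcH2B (46.5%, against 66.3%), and of the 2 that did not, 0 had it (against 16.3%). The 11 genes with AcH2B alone in siME2 were Psma7, Psmb4, Psmb5, Psmd4, Psmd6, Psmd9, Psme3, Psmg1, Psmg3, Psmc3ip and Psme3ip1.

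The position of the strongest summit differed between AcH3 in siControl and AcH2B in siME2. Among summits within 1 kb of the annotated start, AcH3 in siControl lay a median of 238.5 bp downstream, and 31 of 36 members had it on the transcribed side (86.1%, against 79.9% of all genes). In siME1 the AcH3 median was 195 bp downstream, against 234 bp over all genes, with 23 of 35 members on the transcribed side (65.7%, against 73.1%). In siME2 it was 51 bp downstream, against 170 bp, with 7 of 13 (53.8%, against 59.6%). The share fell from siControl to siME2 over all genes too. AcH2B summits in siME1 were on both sides, with 7 of 15 on the transcribed side (46.7%, against 51.1% of all genes) and a median of −218 bp, against 52 bp downstream over all genes. In siME2 they were mostly upstream, with 4 of 21 on the transcribed side (19%, against 34.9%) and a median of −351 bp, against −301.5 bp. Gene by gene, the AcH2B summit in siME2 lay upstream of the siControl AcH3 summit at 18 of 21 members (85.7%), against 72% of 3432 genes over all. The median difference was −549 bp, against −400.5 bp over all genes. The AcH2B region still overlapped the siControl AcH3 region at 19 of these 21 members (90.5%), against 78.8% over all genes. Within the siME2 libraries alone, AcH2B lay upstream of AcH3 at 8 of 10 members, against 60.8% of genes over all. Within the siME1 libraries it did so at 9 of 15 members, against 61.9%, with a median difference of −41 bp. Psmb10, Psmd12, Psmc3ip and Psmg3 were the 4 members with a siME2 AcH2B summit on the transcribed side. At 13 of the 45 AcH3 regions in siControl the end of another gene lay within 1 kb. Its part in the position of the summits was not tested.

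**Figure D4:**
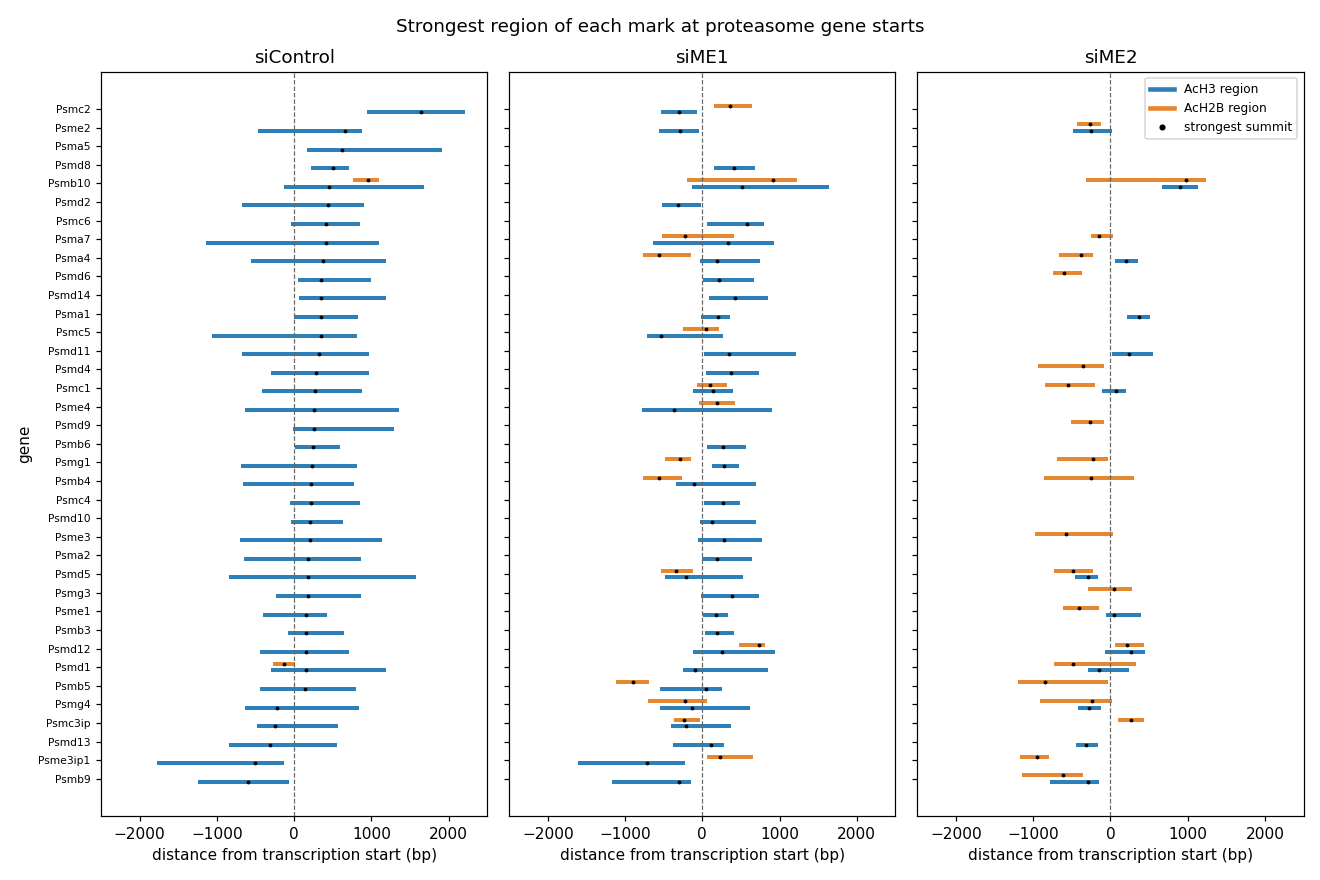
Extent of the strongest AcH3 region (blue) and AcH2B region (orange) at 37 proteasome genes, as distance from the annotated transcription start in bp (horizontal axis, transcription to the right), with 1 panel per siRNA and a black dot at the summit. The AcH3 regions drawn have a median width of 1303 bp in siControl (37 genes), 742 bp in siME1 (35) and 458 bp in siME2 (13), and most orange regions in siME2 lie to the left of the start, with 4 of 21 summits to its right.

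HDAC3 end regions were at different members in each library. Psmd3 had a fold of 3.27 in siControl, Psmb10 had 2.91 in siME1 and Psmd5 had 2.82 in siME2. All 3 had a −log10 q of 0, so none passed a limit on q, and no HDAC3 region was at the same member in more than 1 library. Little overlap was the general pattern. Of all genes with HDAC3 in siControl, 80.4% were not listed in siME1 and 84.7% were not listed in siME2. Only 0.32% of all genes were listed in all 3 libraries.

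Other genes of the pathway were compared by a list of 30 that holds ubiquitin genes, shuttle factors, the NRF1 and NRF2 genes and proteasome-associated factors. AcH3 was listed at 29, 25 and 20 of them in siControl, siME1 and siME2, AcH2B at 9, 19 and 19, and HDAC3 at 7, 3 and 1. For HDAC3 that is 23.3%, 10% and 3.33%, against 4.53%, 2.99% and 1.91% of all genes. The proteasome genes had a lower AcH3 share in siME2 than this list, 37.3% against 66.7%. Nfe2l1, the NRF1 gene, had AcH3 folds of 11.6, 7.85 and 6.71 and AcH2B folds of 3.96, 4.32 and 3.57. Pomp, which encodes a maturation factor of the core, had AcH3 folds of 12.2, 7.80 and 3.86 and AcH2B of 3.34 in siME2 only. Uchl5, a deubiquitinase of the cap, had 7.93 in siControl and no AcH3 in either knockdown, as did Uba1, the ubiquitin-activating enzyme, with 7.24, and Ube3c, a ligase that acts on the proteasome, with 8.94. Ecpas had no end region in any library. Other sets of housekeeping genes were counted the same way. AcH3 was listed at 81, 79 and 46 of 90 cytosolic ribosomal protein genes, and AcH2B at 13, 55 and 55. For 78 mitochondrial ribosomal protein genes the counts were 73, 64 and 28 for AcH3 and 9, 38 and 45 for AcH2B. The proteasome share with AcH3 in siME2, 37.3%, lay between 51.1% and 35.9% for these sets, and its AcH2B share there, 51%, lay below their 61.1% and 57.7%. The order of the libraries was the same in all 3 sets for AcH3, and AcH2B was listed least often in siControl in each. Both traits hold over all protein-coding genes too. There AcH3 was listed at 47.0%, 41.7% and 23.9%, and AcH2B at 10.1%, 30.6% and 25.8%.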

How the data were processed

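Each library was deposited as 1 table of peaks with 10 columns and no header. Per the labels and the values in the files, the deposited pileup is a coverage signal in fragments, the deposited significance is a −log10 p and a −log10 q, the deposited fold is a ratio of pileup to local background, and the deposited length is a width in bp. Per the submitters' processing notes the tools included MACS2, BWA, deepTools, SAMtools and bedtools, with roles, versions and settings not given in the sources used here. These notes name the build mm8, but the scaffold names belong to GRCm38, and coordinates were read as such. The last deposited region on chromosome 1 ended at base 195321056, which does not by itself settle the build. Summits of one peak were joined, and the region took the values of the summit with the highest −log10 p.

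Regions were joined to genes with Python 3.11.15, pandas 2.3.3 and numpy 2.4.6, tested on simulated regions, and drawn with matplotlib 3.10.9. The gene table has no strand, which was taken from the RefSeq promoter table for 43 members. The cytosolic ribosomal set came from symbols, with 10 S6 kinase genes left out of 100 matches. Values in every library were given at least for the 10 members with the highest siControl AcH3 −log10 p, for members listed in siControl alone or in all 3 libraries, for those with AcH2B in siControl or gained in both knockdowns, for those with HDAC3, for inducible subunits and for unlisted members. The members and lists were chosen with earlier results of these data known. The alternatives were a stricter score, windows of 0.25 and 5 kb, the strongest summit in the window, lists of equal length, regions near no other gene end, and annotated starts only.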

Additional observations from a re-analysis of the deposited data

How the results depend on the processing

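Of 147 alternative counts over 7 settings, 112 were within 1.5 times the reported one and none of the 42 with a window of 0.25 kb or the strongest summit in the window moved. With a −log10 q of at least 5 for acetylation and 1.3 for HDAC3, AcH3 was listed at 8 members in siME2, AcH2B at 2, 10 and 14 in siControl, siME1 and siME2, and HDAC3 at 0 in each. AcH3 was then lost at 9 members in siME1, AcH2B was gained at 9 in siME1 and 12 in siME2, and HDAC3 was lost and gained at 0. With lists of equal length (21995 AcH3, 20046 AcH2B and 1597 HDAC3 regions), AcH2B was listed at 9 members in siME1 and gained there at 6, AcH3 was lost at 7 in siME1, HDAC3 was listed at 0 in siControl and siME1, lost at 0 in both knockdowns and gained at 0 in siME1. With a window of 5 kb, AcH2B was listed at 7 in siControl and lost at 2 in siME1 and 1 in siME2, and HDAC3 was listed at 2 in siME1 and gained at 2. With regions near no other gene end, AcH2B was listed at 11 in siME1, gained at 10 and lost at 2 there, and AcH3 was gained at 2. Psmb3 and Psmg1 had AcH3 in siControl in the main count, with folds of 6.99 and 10.9. Their siControl regions lay within 1 kb of another gene's end and so were left out under this setting, while their siME1 regions did not. With annotated starts only, AcH2B was listed at 2 in siControl, and HDAC3 at 0 there and lost at 0 in both knockdowns. Fewer regions enter the stricter and the equal lists, and the cause of the other changes was not tested. No paired analysis was possible because each antibody and siRNA has 1 library and no result comes from a test. A region under the authors' score limit is not listed, so a count of 0 does not mean that no histone was acetylated.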

Other observations

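Psmb5 and Psmb11 are neighbours that encode alternative β subunits, and the AcH3 fold at Psmb5 was 6.44 in siControl and 3.23 in siME1 while Psmb11 had no end region in any library. Psmf1 and Psma6 were marked only at starts inside the gene as the table draws it. Over the 43 members with an annotated start, AcH3 was listed at 40, 37 and 15 in siControl, siME1 and siME2, and AcH2B at 2, 17 and 25. With a single start per gene, as in the motif counts, AcH3 in siControl was at 39 of the 43 members. The background for that count was 8437 of 17492 protein-coding promoters. No such background is given for the knockdowns or for AcH2B. Those counts at annotated starts therefore do not set the members apart from promoters in general. No explanation was tested.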
